A study of Homo sapiens with 4 samples.

Results

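The subject of this report is the departure from additivity between JQ1 and PHA in Jurkat, a T lymphoblast line established from a human leukemia. Wild-type Jurkat cells had been treated for 24 h with DMSO, the vehicle, or 0.5 μM JQ1, each either alone or together with PHA at 150 ng/ml, and RNA-seq of each of these 4 conditions gave 1 library. For each gene the interaction was the log2 PHA ratio in JQ1-treated cells minus the log2 PHA ratio in DMSO-treated cells, taken on FPKM after adding 0.1. It was computed for the 11503 genes, of 50868 in the files, whose mean FPKM over the libraries was at least 1. A value of 0 means that the PHA ratio was the same with and without JQ1. A value of 1 means that the JQ1 + PHA library lay 2-fold above the product of the separate JQ1 and PHA ratios, and -1 that it lay 2-fold below it.

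PHA is a plant lectin that crosslinks glycoproteins on T cells, the T-cell receptor among them. Signals from that receptor pass through LCK, ZAP70 and the adaptors LAT and SLP-76 to calcium, calcineurin and NFAT, to the MAP kinases and AP-1, and to NF-kB. They switch on early response factors such as EGR1 and surface molecules such as CD69. JQ1 displaces BET proteins from acetylated histones, and this family is known for its link to the elongation kinase P-TEFb. HEXIM1, an inhibitor of P-TEFb, is a gene that BET inhibitors are known to raise. Asking whether PHA acts alike in cells with and without JQ1 therefore asks how far the response to activation depends on the presence of a BET inhibitor.

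Total counts lay between 18620954 and 19685401 per library. Of the 20 T-cell line markers, 19 or 20 were at 1 FPKM or more in each library, and their summed FPKM lay between 871 and 1460. Of the 22 markers of other lineages, 2 or 3 reached 1 FPKM, and their summed FPKM was between 4.34 and 28.8, led by PECAM1 in every library. CSF1R, FCGR3A, HBB and EPCAM had no count in any library. As each condition had a single library, no interaction has a replicate check and none was tested. The 95% intervals given beside values cover counting error only. In bulk RNA, fewer cells with a transcript and less of it per cell cannot be told apart.

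The interaction was centred on 0. Its median over all genes was 0.00, its middle 50% of genes lay between -0.19 and 0.18, and 5% of genes lay below -0.73 and 5% above 0.60. At least 2-fold above additive were 229 genes, 1.99% of those with a value, and at least 2-fold below additive were 337, or 2.93%, together 566 or 4.92%. For 188 of the former (1.63% of all genes) and 292 of the latter (2.54%) the counting interval excluded 0. That interval alone is a weak criterion, since it excluded 0 for 41.9% of all genes whatever the size of their interaction. At the threshold, TMEM11 lay just inside the higher end with 1.006 and ZNF7 just outside with 0.998, so the ends have no natural border. The lowest count over the libraries had a median of 86.0 reads among genes of the higher end, 105 in the lower end and 546 over all genes.

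**Figure D1:**
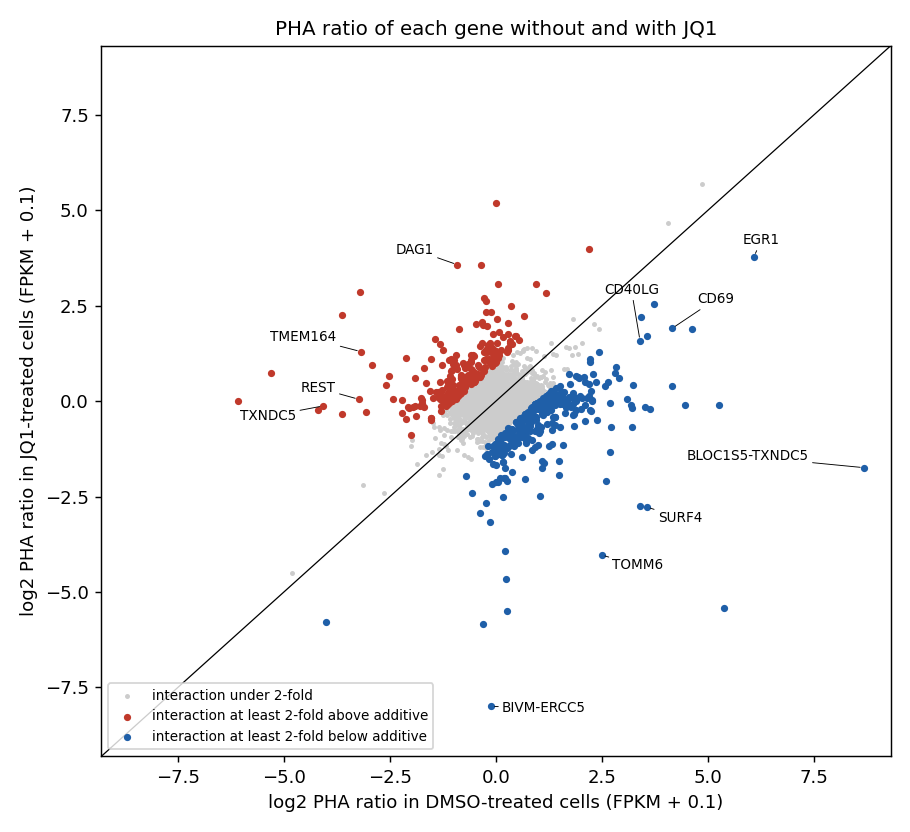
Each point is 1 of the 11503 genes, with the log2 PHA ratio in DMSO-treated cells on the x axis and in JQ1-treated cells on the y axis, both on FPKM + 0.1. The 229 red genes lie at least 2-fold above the diagonal and the 337 blue genes at least 2-fold below it, with EGR1, CD69 and CD40LG far to the right, where the PHA ratio was higher in DMSO-treated cells.

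The ends were made of different patterns, which are described here and not tested, since the rule used the same values. Over all genes, 2.1% were at least 2-fold higher and 1.19% at least 2-fold lower with PHA in DMSO-treated cells, and 1.04% and 1.03% in JQ1-treated cells. Among the 337 genes of the lower end, 149 were at least 2-fold higher with PHA in DMSO-treated cells and within 2-fold in JQ1-treated cells. A further 67 were within 2-fold in DMSO-treated cells and at least 2-fold lower with PHA in JQ1-treated cells. In 16 the PHA ratio passed 2-fold upwards without JQ1 and downwards with it, in 10 it passed 2-fold upwards in both, in 1 downwards in both, and in 94 in neither. Among the 229 genes of the higher end, 82 were at least 2-fold lower with PHA in DMSO-treated cells only and 66 at least 2-fold higher with PHA in JQ1-treated cells only. Another 10 were lower without JQ1 and higher with it, 2 were higher in both, and 69 passed 2-fold in neither. The median log2 PHA ratio of the lower end was 1.04 in DMSO-treated cells and -0.42 in JQ1-treated cells, and that of the higher end was -0.82 and 0.64.

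Several T-cell activation genes lay at the lower end. Of the 43 activation receptors and checkpoints looked up in the files, 19 had a value, and 7 of these (36.8%, against 2.93% of all genes) lay at least 2-fold below additive and 0 above. Their median interaction was -0.86. The share is partly set by the filter on mean FPKM, as most members of the list had no value and 2 of the 7, CD27 and PDCD1, passed only through the DMSO + PHA library, where a high level itself makes the interaction low. It is therefore given as a description. Of the 51 genes of the T-cell receptor complex and proximal signalling with a value, 6 (11.8%) lay below and 0 above, with a median of -0.23, and of 20 early response and AP-1 factors 3 (15.0%) lay below and 0 above, with a median of -0.24. The median PHA ratio of the activation receptors on the log2 scale was 0.88 in DMSO-treated and 0.17 in JQ1-treated cells.

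EGR1 (ENSG00000120738, chr5:138465490-138469315, GRCh38), a zinc-finger early response factor, had the widest PHA ratio of these genes. Its FPKM was 0.491 in the DMSO library, 0.405 after JQ1, 39.9 after DMSO + PHA, and 6.85 after JQ1 + PHA, from 29, 25, 2464 and 400 counts. The PHA ratio was 67.6-fold without JQ1 and 13.8-fold with it, and the interaction was -2.30 (95% interval -3.10 to -1.41). EGR1 thus stayed PHA-responsive in JQ1-treated cells, at a lower level. CD69 (ENSG00000110848, chr12:9752486-9760901), the early activation antigen, had FPKM of 1.05, 0.766, 20.4 and 3.14 in the same order of libraries. Its PHA ratio was 17.8-fold in DMSO-treated and 3.74-fold in JQ1-treated cells, with an interaction of -2.25 (-2.83 to -1.64). CD40LG (ENSG00000102245, chrX:136648193-136660390), the ligand by which T cells help B cells, had FPKM of 4.40, 0.662, 47.2 and 2.18. Unlike EGR1 and CD69, it was already 5.90-fold lower with JQ1 alone, and it was 20.8-fold lower with JQ1 in the presence of PHA, an interaction of -1.82 (-2.41 to -0.97).

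The 6 genes of the receptor and proximal signalling list that lay below additive each had their highest level after DMSO + PHA. LCP2 (ENSG00000043462, chr5:170246237-170298227), which encodes SLP-76, had FPKM of 5.64, 5.53, 26.1 and 7.63 in that order of libraries. Only the DMSO + PHA library stood out, with 6174 counts against 1273, 1305 and 1705, and the interaction was -1.73 (-1.88 to -1.61). TRAC, the constant segment of the receptor's alpha chain, had FPKM of 16.7, 8.56, 221 and 50.1, so that PHA gave a 13.2-fold ratio without JQ1 and a 5.79-fold ratio with it (interaction -1.18, -1.40 to -0.95). CD28, the costimulatory receptor, had FPKM of 6.70, 5.36, 19.1 and 7.11 (-1.10, -1.26 to -0.95). UBASH3B, a phosphatase that restrains receptor signalling, had FPKM of 5.45, 3.76, 15.9 and 4.13 (-1.40, -1.59 to -1.23). The lower end thus held both a costimulatory and an inhibitory member of the list. SH2D2A, an SH2 adaptor, had FPKM of 1.63, 0.695, 6.29 and 1.16 (-1.23, -1.81 to -0.61). SH2D1A, the adaptor of SLAM receptors, had FPKM of 11.5, 8.95, 22.9 and 5.74, but its locus overlaps STAG2, and after summing the counts of the overlapping genes its interaction of -1.63 became -0.28.

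**Figure D2:**
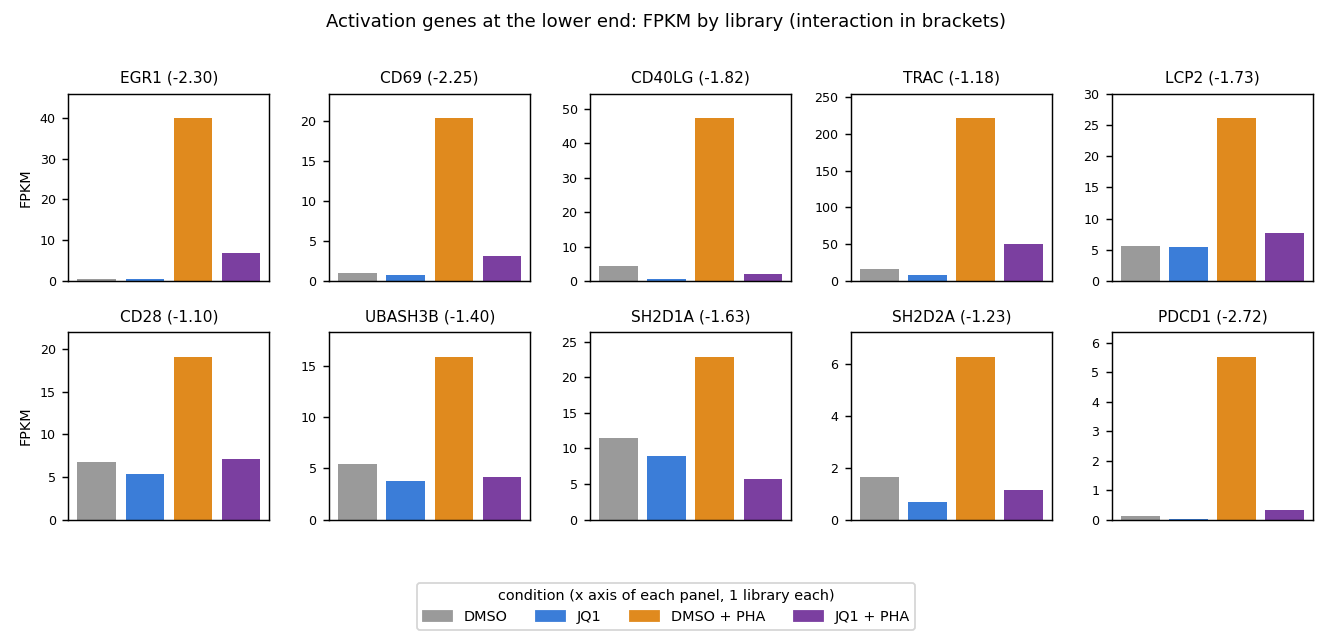
Bars give the FPKM of 10 activation genes in the 4 libraries, 1 bar per library, on a linear axis from 0, with the interaction in brackets. In every panel the DMSO + PHA bar is the tallest, and in EGR1 it reaches 39.9 FPKM against 6.85 with JQ1 + PHA. The interaction of PDCD1 rests largely on the added 0.1, with 1 read in the JQ1 library, and its counting interval included 0.

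The counts of the other receptors of the list varied widely. CD27, a costimulatory TNF receptor, had 22, 8, 118 and 6 counts (interaction -2.45, -4.62 to -0.80), and it overlaps an antisense gene, with an interaction of -0.64 after summing. CD82, a tetraspanin, had 520, 1039, 1533 and 1109 counts (-1.30, -1.51 to -1.13), so that JQ1 alone was nearly as high as the combination. IL2RB, the beta chain of the IL-2 receptor, had 55, 120, 218 and 159 counts (-1.29, -2.01 to -0.87). PDCD1 (ENSG00000188389, chr2:241849881-241858908), which encodes PD-1, had 8, 1, 356 and 20 counts. Its interaction of -2.72 on FPKM + 0.1 rests largely on the added 0.1, as its FPKM was 0.13 in the DMSO and 0.0155 in the JQ1 library. From the counts alone, with 1 read in the JQ1 library, it was -1.01, with an interval from -4.02 to 4.53, so that this depth does not fix even its sign. With PHA, its FPKM was 5.53 in DMSO-treated and 0.328 in JQ1-treated cells. CD52, a small surface glycoprotein, had an interaction of -1.24, and of -0.69 after summing with the overlapping UBXN11. HAVCR2, CD274 and NFATC1, which encode Tim-3, PD-L1 and NFAT2, had a mean FPKM under 1 and so no value under the rule. NFATC1 had 275, 171, 618 and 226 counts, an interaction of -0.61 with an interval from -0.98 to -0.26.

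The promoters of genes at the lower end, and of genes at the higher end, are shown so that the motifs searched can be read in place. They run from 250 bases before to 50 after the annotated start in RefSeq (GRCh38.p14), 5′ to 3′ on the gene's strand, and capitals mark the matches found. EGR1 (chr5:138465229-138465528, plus strand) holds the core of a serum response element, PDCD1 (chr2:241858845-241859144, minus strand) holds an E-box, and LCP2 (chr5:170297728-170298027, minus strand) holds none of the motifs. The counting interval of PDCD1 (-4.02 to 4.53) included 0, so its place at the lower end is uncertain and it is not in the motif shares given below. Of the higher end, REST (chr4:56907650-56907949, plus strand) and DAG1 (chr3:49469882-49470181, plus strand) each hold 1 SP/KLF motif. The promoters of TMEM164 at the higher end and SURF4 at the lower end hold none of the motifs and are not printed.
EGR1: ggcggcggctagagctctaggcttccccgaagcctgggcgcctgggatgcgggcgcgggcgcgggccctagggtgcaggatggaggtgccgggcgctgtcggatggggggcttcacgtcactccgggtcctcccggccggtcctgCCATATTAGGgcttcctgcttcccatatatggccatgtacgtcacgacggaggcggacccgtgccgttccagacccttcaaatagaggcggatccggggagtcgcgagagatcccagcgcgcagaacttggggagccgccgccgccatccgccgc
PDCD1: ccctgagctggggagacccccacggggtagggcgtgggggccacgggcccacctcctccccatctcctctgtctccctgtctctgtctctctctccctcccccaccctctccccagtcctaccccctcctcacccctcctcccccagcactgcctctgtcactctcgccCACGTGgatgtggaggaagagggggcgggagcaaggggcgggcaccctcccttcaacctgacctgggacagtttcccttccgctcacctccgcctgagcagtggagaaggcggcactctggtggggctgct
LCP2: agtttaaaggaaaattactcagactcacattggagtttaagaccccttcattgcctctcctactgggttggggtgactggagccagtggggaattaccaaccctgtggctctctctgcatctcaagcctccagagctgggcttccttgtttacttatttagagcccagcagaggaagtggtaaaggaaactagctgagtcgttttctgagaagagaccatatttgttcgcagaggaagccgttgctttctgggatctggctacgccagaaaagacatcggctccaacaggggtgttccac
REST: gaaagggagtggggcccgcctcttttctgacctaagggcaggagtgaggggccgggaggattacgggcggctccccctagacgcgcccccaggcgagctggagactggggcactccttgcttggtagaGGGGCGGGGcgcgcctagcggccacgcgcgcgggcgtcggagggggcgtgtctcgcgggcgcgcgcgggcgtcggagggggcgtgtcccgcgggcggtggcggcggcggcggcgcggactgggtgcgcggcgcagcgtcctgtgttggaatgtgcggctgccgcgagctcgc
DAG1: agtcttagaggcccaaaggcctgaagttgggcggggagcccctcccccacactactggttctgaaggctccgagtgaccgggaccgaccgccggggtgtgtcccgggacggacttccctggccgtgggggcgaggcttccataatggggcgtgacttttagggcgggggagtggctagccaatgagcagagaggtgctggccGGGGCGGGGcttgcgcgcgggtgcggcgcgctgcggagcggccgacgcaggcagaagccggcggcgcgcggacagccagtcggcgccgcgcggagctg

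Motifs were searched on both strands of each promoter, and a match is a description only. A promoter was found for 179 of the 292 genes of the lower end whose interval excluded 0, for 113 of the 188 of the higher end, and for 8162 of all genes with a value. The AP-1 motif (TGACTCA or TGAGTCA) was in 4.47% of the lower end, 1.77% of the higher end and 2.40% of all genes with a value. The cyclic AMP response element (TGACGTCA) was in 5.03%, 0.885% and 3.68% in that order, and the E-box (CACGTG) in 9.50%, 3.54% and 10.8%. The SP/KLF motif (GGGGCGGGG) was in 26.8%, 32.7% and 28.3%, and TATAAA in 4.47%, 6.19% and 4.89%. The NF-kB motif was in no promoter of either end and in 0.343% of all. An AP-1 motif together with the NFAT core (GGAAA), which counts promoters already in the AP-1 share, was in 2.23%, 1.77% and 1.58%. The serum response core shown in the EGR1 promoter was in 1 promoter of the lower end, that of EGR1, and in 5 of the 8162. Over the 35116 promoters of the whole table the shares were 4.95% for AP-1, 1.85% for the cyclic AMP element, 7.26% for the E-box, 15.7% for SP/KLF, 11.5% for TATAAA, 0.336% for NF-kB, 3.14% for AP-1 with the NFAT core and 0.0342% for the serum response core. These counts of promoters are small, and no share was tested.

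A second pattern of the lower end was a level that was low only in the untreated library and alike in the other libraries, so that it was higher with JQ1 and with PHA, and the combination gave no more. To count such patterns, a library was taken to stand apart when it lay at least 2-fold beyond the nearest of the other 3 and these lay within 1.5-fold of each other. The DMSO library stood apart as low in 39 genes, 38 of them in the lower end. TRIM56, a ubiquitin ligase, had 375, 2673, 2653 and 2438 counts (interaction -2.73, -2.99 to -2.63). CHP1, a calcineurin-like calcium-binding protein, had FPKM of 3.78, 17.0, 18.5 and 17.3 (-2.24, -2.45 to -2.08). IER3IP1, a small endoplasmic reticulum protein, had 285, 1041, 1128 and 978 counts (-1.91, -2.16 to -1.70). In these genes the treated libraries differed little from each other. Among listed genes, GINS4, a subunit of the replicative helicase, had FPKM of 1.87, 7.17, 6.85 and 7.56 (-1.74, -1.99 to -1.61), and IKZF2, which encodes the T-lineage factor Helios, had FPKM of 17.4, 36.6, 41.3 and 38.8 (-1.17, -1.22 to -1.12). IKZF2 rests on 6921 to 17249 counts a library and is among the best counted genes of the lower end named here.

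KLF2, IER3, SERTAD1 and NEAT1 also had lower values in the DMSO library than in all others. KLF2, a factor of resting T cells, had 14, 95, 61 and 82 counts (-1.87, -3.24 to -1.20). IER3, an early response gene, had 49, 155, 259 and 322 counts (-1.12, -1.75 to -0.67), with the combination highest. SERTAD1, a transcriptional coregulator that binds CDK4, had 19, 125, 52 and 100 counts (-1.46, -2.56 to -0.74). NEAT1, the noncoding RNA of paraspeckles, had FPKM of 3.26, 24.2, 6.99 and 21.4 (-1.25, -1.37 to -1.18), which was 7.22-fold higher with JQ1 alone. Of these, NEAT1 has the highest counts, from 1601 to 12415 a library.

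Another pattern was crossed, with high levels after JQ1 alone and PHA alone and low levels in the untreated and the combined library. With at least 2-fold between these pairs and 1.5-fold within each, it was found in 8 genes, all of the lower end, and its mirror image in 1 gene. SURF4 (ENSG00000148248, chr9:133361449-133376166), a cargo receptor of the endoplasmic reticulum, had 492, 4088, 6221 and 553 counts, an interaction of -6.33 (-6.59 to -6.21). It has the same shape but is not among the 8, since its FPKM of 26.9 after JQ1 and 40.9 after PHA differed by slightly over 1.5-fold. The deposited loci hold no gene that overlaps it. GOPC, a Golgi PDZ protein, had 1004, 4176, 2966 and 1023 counts (-3.42, -3.59 to -3.30). MRFAP1 had 1241, 3954, 3660 and 1252 counts (-3.06, -3.21 to -2.94), and POU2F1, the octamer factor Oct-1, had 902, 2114, 2364 and 841 (-2.44, -2.74 to -2.41). GOPC, MRFAP1 and POU2F1 are 3 of the 8, as is ZNF440, which had 207, 606, 562 and 255 counts (-2.43, -2.87 to -2.22). SC5D, a sterol desaturase and the only cholesterol gene past 2-fold of 29 with a value, had FPKM of 1.71, 4.15, 2.70 and 1.45 (-2.08, -2.44 to -1.90). TRIM32, a ubiquitin ligase within a locus of ASTN2, had 83, 367, 602 and 70 counts, and its interaction of -4.68 was -3.16 after summing with ASTN2.

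The combined library alone was low in 23 genes, 21 of them in the lower end. ZNF24 had 5219, 6618, 5631 and 1420 counts (-2.15, -2.29 to -2.09), and ZDHHC20, a palmitoyltransferase, had 3710, 5357, 4149 and 1234 (-2.12, -2.25 to -2.02). SLC16A7, a monocarboxylate transporter, had 807, 756, 989 and 153 (-2.22, -2.75 to -2.16). In all 3, the levels without treatment and with either agent alone were within 1.5-fold of each other. CTSB, the lysosomal protease cathepsin B, had FPKM of 2.63, 3.43, 2.66 and 1.34 (-1.31, -1.58 to -1.17), and DANCR, a snoRNA host gene, had 7.08, 10.5, 6.06 and 3.86 (-1.19, -1.54 to -0.89). The DMSO + PHA library alone was high in 22 genes, 18 of the lower end, LCP2 among them. PI16, a peptidase inhibitor family member, had 129, 144, 831 and 182 counts (-2.16, -2.63 to -1.78), and PRKCE, a protein kinase C, had 176, 174, 901 and 177 (-2.06, -2.58 to -1.79). PRKCE passed the filter on mean FPKM only through the DMSO + PHA library, where a high level itself makes the interaction low.

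At the higher end, many genes were lower with JQ1 in the absence of PHA only. Over all genes, 8.65% were at least 2-fold lower with JQ1 without PHA, and 3.69% at least 2-fold higher and 8% at least 2-fold lower with JQ1 in its presence. Of the 229 genes, 85 were at least 2-fold lower with JQ1 in the absence of PHA and within 2-fold in its presence, 66 were within 2-fold without PHA and at least 2-fold higher with JQ1 in its presence, and 22 were lower in both. DAG1 (ENSG00000173402, chr3:49468703-49535618), which encodes dystroglycan, had FPKM of 2.17, 0.153, 1.10 and 2.92, from 758, 56, 403 and 1007 counts. Its interaction was 4.49 on FPKM + 0.1 and 5.22 from the counts (4.79 to 5.68), the added 0.1 being close to its level with JQ1. ZNF33B had FPKM of 8.87, 1.99, 7.26 and 13.5 (interaction 2.99, 2.86 to 3.25), and LPGAT1, a lysophospholipid acyltransferase, 8.87, 1.35, 8.14 and 7.27 (2.46, 2.33 to 2.77). In all 3 genes the JQ1 library was the lowest. CFLAR, which encodes the caspase-8 inhibitor c-FLIP, had FPKM of 1.78, 0.565, 0.883 and 1.17 (1.87, 1.82 to 2.31) and was the only 1 past 2-fold of 22 BCL2-family and death-receptor genes with a value. CFLAR passed the filter on mean FPKM only through the DMSO library, where a high level itself makes the interaction high.

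REST and TMEM164 had their lowest level with DMSO + PHA. REST (ENSG00000084093, chr4:56907876-56935844), a repressor of neuronal genes, had 1933, 2951, 186 and 2888 counts, so that PHA gave a 9.42-fold lower level in DMSO-treated cells and a ratio of 1.03-fold in JQ1-treated cells (3.28, 3.26 to 3.73). TMEM164 had FPKM of 6.18, 2.56, 0.589 and 6.44 (4.48, 4.43 to 5.01), lower than untreated with either agent and alike with both. C9orf69 had 485, 303, 73 and 386 counts (3.02, 2.80 to 3.66). MXI1, a MAX-binding antagonist of MYC, had FPKM of 2.99, 0.870, 0.973 and 1.98 (2.63, 2.42 to 3.19), again lowest with each agent alone. The JQ1 and DMSO + PHA libraries of MXI1 held 150 and 168 counts.

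Other named genes of the higher end had smaller values and came from lists with few members past 2-fold. Of 33 T-lineage factors 2 lay above and 2 below additive, of 53 DNA replication genes 2 above and 1 below, and of 18 cyclins, CDK inhibitors and RB-family genes 1 above. TFDP1, the E2F partner DP1, had FPKM of 52.0, 16.9, 29.1 and 25.6 (1.43, 1.33 to 1.54), a JQ1 ratio 3.06-fold down in the absence of PHA and 1.14-fold down in its presence. E2F3 had FPKM of 3.38, 2.22, 4.10 and 9.41 (1.76, 1.61 to 1.99), and NFAT5, the NFAT-family factor of osmotic stress, 1.69, 1.52, 2.13 and 4.56 (1.20, 1.10 to 1.39). Both were highest with JQ1 + PHA, as was STOX1, a winged-helix protein, with 134, 157, 109 and 651 counts (2.41, 2.03 to 2.95). DNTT, the terminal transferase of immature lymphocytes, had FPKM of 49.0, 7.19, 16.8 and 5.25 (1.10, 0.84 to 1.35). It was lower with JQ1 and with PHA, and the combined level was above the product of these ratios. HDAC3, a histone deacetylase, had 1357, 1350, 954 and 1863 counts (1.10, 0.96 to 1.28). TCF7, the T-lineage factor TCF-1, had FPKM of 17.6, 8.47, 19.2 and 21.4 (1.20, 1.14 to 1.28), but it overlaps SKP1, and the value after summing was 0.59.

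**Figure D3:**
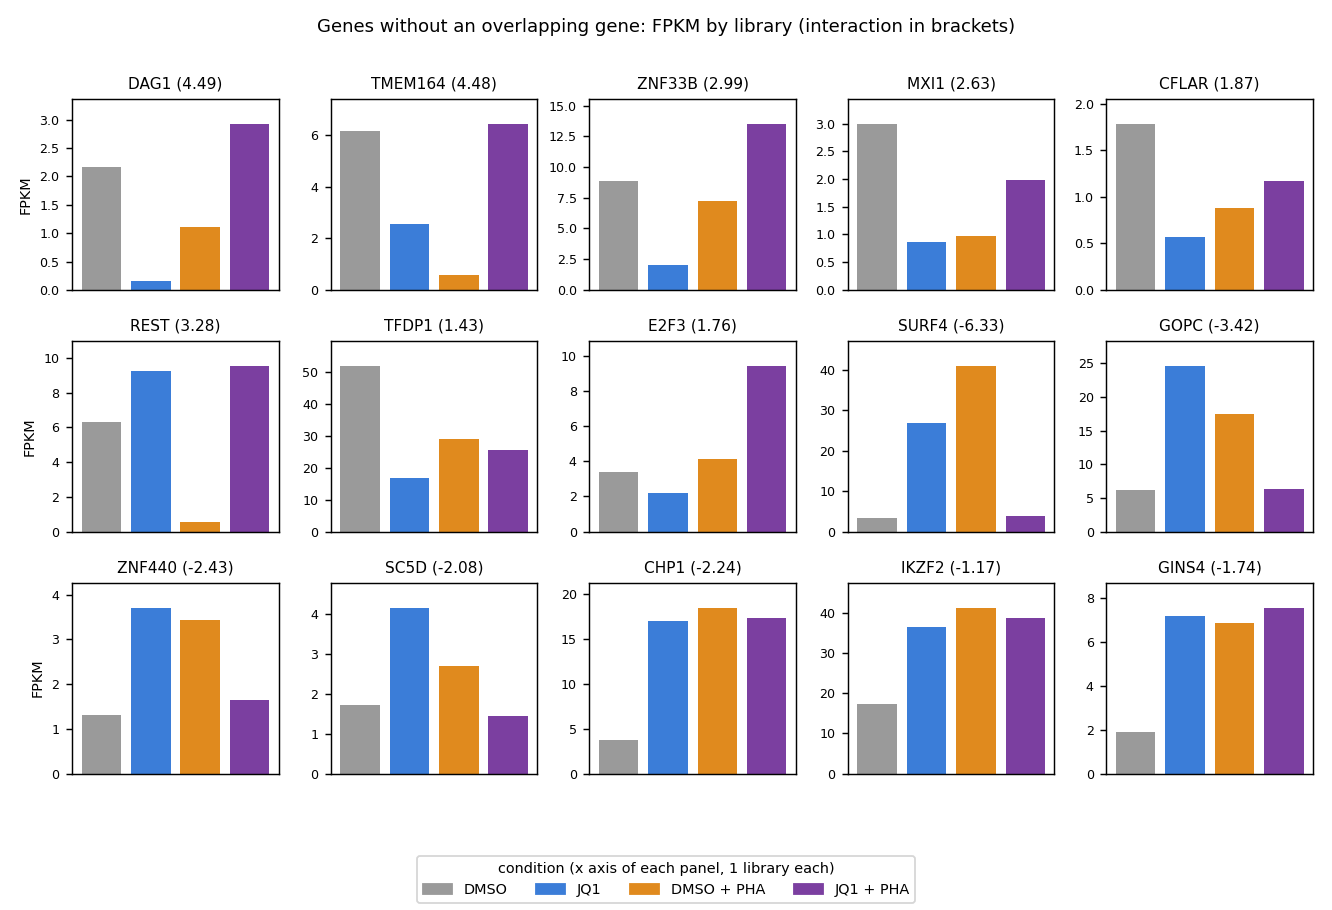
Bars give the FPKM of 15 genes without an overlapping gene that holds 10% of their counts, 1 bar per library on a linear axis from 0, with the interaction in brackets. DAG1, ZNF33B and CFLAR are lowest with JQ1, REST and TMEM164 with DMSO + PHA, SURF4 and GOPC are low in the untreated and the combined library, and CHP1, IKZF2 and GINS4 are low only with DMSO.

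Many extreme values, the 4 lowest of the named genes among them, belonged to genes that overlap others, while SURF4, DAG1 and TMEM164 have no such overlap. A gene was called overlapping when other genes at its locus, on either strand, held at least 10% of its own counts. This was so for 31.2% of all genes, 45.0% of the higher end and 43.9% of the lower end, and of the 251 such genes in the ends 45 stayed past 2-fold in their direction when the counts of the overlapping genes were added. TXNDC5, a disulfide isomerase, had 2775, 1320, 163 and 1144 counts (interaction 3.95), and the readthrough gene BLOC1S5-TXNDC5, which spans it, had 0, 14, 2424 and 0 (-10.41, or at most -11.74 against a floor of 3 counts in the libraries at 0). Their summed counts were 2775, 1334, 2587 and 1144, with an interaction of 0.02 (-0.12 to 0.16). BLOC1S5-TXNDC5 passed the filter on mean FPKM only through the DMSO + PHA library, where a high level itself makes the interaction low. TOMM6, of the mitochondrial import pore, had 210, 293, 1243 and 15 counts (-6.52), while PRICKLE4 at the same place had 1000, 445, 168 and 671 (3.18), and the sum gave -0.18 (-0.37 to 0.01). Thus 2 genes of each locus stood at opposite ends, and their sum was near additive. BIVM-ERCC5, a readthrough gene, had 1978, 2077, 1909 and 0 counts. By the same floor its interaction was at most -9.24. ERCC5, a DNA repair nuclease, had 1187, 1295, 1399 and 2710 counts, and the sum gave -0.23 (-0.34 to -0.13). UPK3BL had 0, 121, 99 and 106 counts, at most -5.09 by the same floor, and its neighbour RP11-577H5.5 had 91, 1, 5 and 1, with a sum at -0.24 (-0.82 to 0.34). Some sums with another single partner lay further from 0. They were -1.04 for TOMM6 and 0.94 for PRICKLE4 with USP49, -1.22 for BIVM-ERCC5 with BIVM, and -2.55 for UPK3BL with RP11-514P8.6. Summed over all overlapping genes, TOMM6, PRICKLE4, BIVM-ERCC5 and UPK3BL had -0.05, -0.06, -0.08 and 0.09.

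At other loci the sum was near 0 for some and not for others. RAB43, a small GTPase, had 110, 21, 87 and 382 counts and ISY1-RAB43 had 137, 521, 0 and 0, and their sum kept an interaction of 1.14 (0.74 to 1.56). ATP5J2-PTCD1 had 275, 116, 1 and 186 counts (6.04), and its sum with PTCD1 was -0.04 (-0.31 to 0.22) but with ATP5J2 1.21 (1.06 to 1.36). SPECC1L-ADORA2A had 191, 140, 36 and 304 counts (3.25) and a sum with SPECC1L of -0.72 (-0.85 to -0.60). HCST, the adaptor DAP10, had 25, 29, 177 and 10 counts (-4.01) and a value of -2.51 after summing. CTD-2550O8.5 had 0, 48, 46 and 0 counts, CTC-260F20.3 14, 200, 191 and 25, RP11-762I7.5 255, 391, 316 and 9, and RP3-468K18.5 24, 14, 2 and 27, and after summing with the genes they overlap their interactions were 0.08, 0.05, 0.09 and -0.12. CIPC, which binds the CLOCK protein, kept -2.08 of its -3.40, and MRPL19 of the mitochondrial ribosome kept 1.42 of its 3.05. RAB43, SPECC1L-ADORA2A and RP3-468K18.5 passed the filter on mean FPKM only through the JQ1 + PHA library, where a high level itself makes the interaction high. How the reads of shared exons had been assigned, and whether strand was used, is not given in the sources used here, so the part of assignment in these values was not tested.

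**Figure D4:**
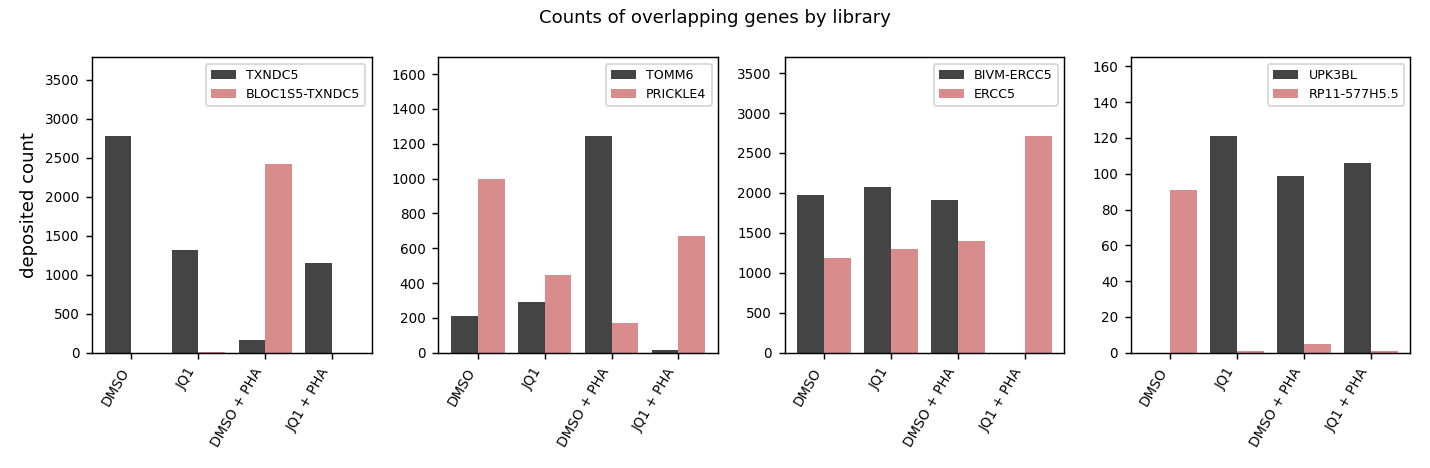
Bars give the deposited counts of 4 pairs of overlapping genes in each library, on a linear axis from 0. TXNDC5 and BLOC1S5-TXNDC5 exchange places in the DMSO + PHA library (163 against 2424 counts), BIVM-ERCC5 falls to 0 counts in the JQ1 + PHA library where ERCC5 has 2710, and UPK3BL and RP11-577H5.5 exchange places in the DMSO library.

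Some long noncoding genes and pseudogenes also lay far out. RP11-473I1.9, a long noncoding RNA that overlaps C16orf72, had 111, 4983, 2901 and 4399 counts (-4.56) and -0.25 after summing. RP11-140H17.1, over CYB5B, had 4, 259, 6 and 1 (-5.77) and 0.09 after summing. RP11-311C24.1, within the locus of NFAT5, had 93, 2, 5 and 20 (5.87) and 1.35 after summing. On mean FPKM, RP11-140H17.1 passed the filter only through the JQ1 library and RP11-311C24.1 only through the DMSO library. Of the pseudogenes, FTH1P10 of ferritin heavy chain had 260, 406, 218 and 4 counts (-5.52), TUBBP1 of beta-tubulin 7.19, 0.102, 7.21 and 7.28 FPKM (5.18), and RP1-40G4P.1 44, 5, 4 and 41 counts (6.06). Reads of processed pseudogenes may be split from those of their parent genes, so these are uncertain. Past 2-fold were 5.65% of long noncoding genes above and 6.82% below additive, 3.40% and 4.71% of pseudogenes, and 1.44% and 2.26% of protein-coding genes. With at least 20 counts in each library required, the shares of long noncoding genes were 2.31% and 3.63%. Those of pseudogenes were then 0.56% and 2.1%, and those of protein-coding genes 1.35% and 2.04%.

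In several lists no member passed 2-fold, where 4.92% of all genes did. At that share a list of fewer than 20 genes would hold about 1 such gene or none. A count of 0 in a short list therefore says little. Among the 2876 genes of highest mean FPKM the shares were lower, 0.8% above and 1.39% below additive. The lists were not matched for level, so in a list of highly expressed genes a count of 0 says less than 4.92% implies. The 79 cytosolic ribosomal protein genes had 0 genes past 2-fold in either direction and a median of 0.14, and the 53 genes of ribosome biogenesis had 0 and a median of 0.12, although the median log2 JQ1 ratio of the latter without PHA was -1.15. None of 52 mitosis genes (median 0.02), 30 interferon-stimulated genes (0.02), 17 genes of MHC class I presentation (0.01), 38 proteasome subunits (0.00), 80 nuclear respiratory chain subunits (0.04), 15 genes of the mitochondrial genome (0.10), 38 ATF4 and tRNA synthetase genes (0.06), 18 NF-kB genes (-0.14) or 18 chemokine receptors and integrins (-0.14) passed 2-fold. The DUSP, SPRY and SPRED feedback genes had 9 members with a value, 0 past 2-fold and a median of -0.44, which became 0.14 among the members with a mean FPKM of at least 5. Only 2 cytokine genes had a value, with a median of -0.64. HEXIM1 had FPKM of 36.2, 109, 34.6 and 104 and an interaction of 0.01 (-0.09 to 0.10). MYC (0.29, -0.16 to 0.69) and JUN (0.38, -0.02 to 0.83) had intervals that included 0.

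The remaining lists had 1 to 4 members past 2-fold, apart from the zinc-finger genes. Of 291 ZNF genes with a value, 11 (3.78%) lay above and 14 (4.81%) below additive, against 1.99% and 2.93% of all genes, with a median of -0.10. Among the 25% of genes with the lowest mean FPKM the shares were 4.31% and 5.39%, and the comparison was not matched for level. Of these 25 ZNF genes, 3 (ZNF286A, ZNF177 and ZNF775) passed the filter on mean FPKM only through their highest library, whose level itself helps set the interaction. ZNF664 had 4147, 8438, 7033 and 1931 counts (-2.72), and kept -2.52 after summing with the overlapping CCDC92, and ZNF177 had 16, 157, 98 and 101 (-2.63) and -1.22 after summing. ZNF791 kept -1.11 after summing. The overlapping ZNF845 (0.20), ZNF775 (0.54), ZNF182 (0.56), ZNF286A (0.67), ZNF227 (0.85), ZNF512 (-0.88) and ZNF596 (-0.98) were under 2-fold after summing. The mitochondrial ribosomal proteins had 2 above and 1 below of 77, with MRPL10 at 1.25 MRPL34 at -1.47 (-1.04 after summing with the overlapping ABHD8) and MRPL19 as above. Further single members were SLC2A3, a glucose transporter (-1.09, -1.55 to -0.82), SDF2L1 of the unfolded protein response (1.13, 0.39 to 2.02), the histone HIST1H2BK (-1.42, -2.37 to -0.53), and the snoRNA hosts SNHG20 (-1.49, and -0.49 after summing with SEC14L1) and SNHG19 (1.23). SLC2A3 passed the filter on mean FPKM only through the DMSO + PHA library, where a high level itself makes the interaction low. IGLL1, of the surrogate light chain, had 715, 6, 625 and 0 counts, an interaction of -1.17 that was at most -0.66 with the library at 0 set to 3 counts. Its interval, up to 0.11, included 0, so that its place past 2-fold rests on the added 0.1.

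Gene properties were compared by splitting the genes into 4 bins of equal size. Mean FPKM is the measure of the filter and, like the length implied by count and FPKM, comes from the same values as the interaction, so that only the transcript annotation and the chromosome are separate from it. The share past 2-fold was larger at low levels, with 4.31% above and 5.39% below additive in the bin of lowest mean FPKM and 0.800% and 1.39% in the highest. In the bin with the shortest gene length implied by count and FPKM the shares were 3.69% and 5.11%, and in the other bins between 1.22% and 1.60% above and between 1.88% and 2.85% below. With at least 20 counts in each library required, the shares of the shortest bin were 1.32% and 2.20%, those of the longest 1.65% and 2.93%. By GC content of the canonical transcript, the median interaction was -0.05 in the lowest bin and 0.07 in the highest. Across chromosomes with at least 100 genes, the share past 2-fold in either direction lay between 3.29% on chromosome 11 and 8.65% on chromosome 22.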

How the data were processed

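RNA-seq of Jurkat cells was analysed in 4 libraries, 1 for each of DMSO, JQ1, DMSO + PHA and JQ1 + PHA. The authors deposited raw read counts per gene and FPKM, a level scaled for gene length and sequencing depth. Reads had been aligned to GRCh38 with Hisat2 2.0.4, and the submitters' processing notes also list TopHat2 2.0.9 and Cufflinks 2.1.1. The labels and the study's methods name different library kits, the latter a stranded kit. Neither the counter, nor whether it used strand, nor an annotation release is given in the sources used here.

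The files were joined by gene identifier, and 49659 of 50868 identifiers were in GENCODE release 44, which gave biotype, transcript length and GC. The interaction was taken on log2(FPKM + 0.1), which shrinks the separate ratios of low genes. Their interaction can come out smaller, as in DAG1 (4.49 against 5.22 from the counts), or larger, as in PDCD1 (-2.72 against -1.01). Intervals are 95% intervals of the ratio of count ratios, corrected for library totals, by a normal approximation on counts + 0.5 for all genes and by the exact conditional method for genes named in the text. They do not contain the pseudocount. A library without counts was set to 3 counts for a bound. There was no test and no p-value, since no condition had a replicate.

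Genes named were the 12 protein-coding and 3 other genes furthest out at each end with an interval excluding 0, up to 4 members of each of 34 lists past 2-fold, and genes the study followed. Examples of a library standing apart were picked from the protein-coding genes without an overlap furthest from 0 in each pattern, and not all of these are named. IL2RB, CD52, IGLL1 and the neighbours of overlapping genes were added after their values were seen. The members and lists were chosen with earlier results of these data known. The steps were tested on simulated data. Alternatives were the pseudocount, the filters, the threshold, median centring, edgeR TMM and DESeq2 scaling factors, protein-coding genes only and a linear scale. Leaving out or summing overlapping genes was chosen after seeing the data. Values were computed in Python 3.11.15 (scipy 1.17.1, numpy 2.4.6, pandas 2.3.3; plots by matplotlib 3.10.9). Scaling factors came from edgeR 4.0.16 and DESeq2 1.42.0 under R 4.3.3. A member of a list that the rule would name is not reported here.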

Additional observations from a re-analysis of the deposited data

Results flagged for a closer look

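In 17 of the genes described the PHA ratio passed 2-fold in opposite directions in DMSO-treated and JQ1-treated cells, with both counting intervals excluding 0. The difference itself was not tested, since each condition had 1 library. Among genes without an overlapping gene that holds 10% of their counts, the ratio was above 2-fold without JQ1 and below it with JQ1 in SURF4 (interaction -6.33), GOPC (-3.42), MRFAP1 (-3.06), POU2F1 (-2.44) and ZNF440 (-2.43), and the reverse held in TMEM164 (4.48), MXI1 (2.63) and the pseudogene RP1-40G4P.1 (6.06). Among genes with such an overlap, the first direction was seen in CTD-2550O8.5 (-10.80, or at most -7.79 with the libraries at 0 set to 3 counts), BLOC1S5-TXNDC5 (-10.41), TOMM6 (-6.52), CTC-260F20.3 (-6.15), TRIM32 (-4.68) and HCST (-4.01), and the reverse in SPECC1L-ADORA2A (3.25), MRPL19 (3.05) and RP11-311C24.1 (5.87). Over all genes with a value, the PHA ratio passed 2-fold in opposite directions in 26, of which 12 overlapped another gene in this way.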

How the results depend on the processing

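No paired analysis was possible because each condition had 1 library. At least 2-fold above and below additive were 229 and 337 genes as reported. The counts were 104 and 185 with a pseudocount of 1, 1064 and 1390 with a mean FPKM of at least 0.1, 54 and 88 with at least 5, and 1784 and 2285 with no filter. They were 604 and 836 at 1.5-fold, 44 and 74 at 4-fold, 137 and 214 among protein-coding genes, and 126 and 189 without overlapping genes. With 20 counts in each library they were 150 and 237, and with counts of overlapping genes summed 159 and 259. Of the listed genes, 24 lay above and 44 below. These were 15 and 31 with a pseudocount of 1, and 9 and 21 with a mean FPKM of at least 5. Among the 25% of genes with the lowest mean FPKM, 9.70% of genes passed 2-fold, and 5.80% with 20 counts in each library. TMM factors, size factors and median centring shifted the median interaction by 0.025, 0.014 and 0.053. Of 71 named genes past 2-fold, 8 were under it with a pseudocount of 1 (KLF2, IER3, NFAT5, SERTAD1, SLC2A3, SDF2L1, HDAC3 and CTSB). None of the 71 changed sign with another pseudocount, scaling factor or the linear scale. Summing the counts of overlapping genes, chosen after seeing the data, turned the sign of 9, to 0.08 in CTD-2550O8.5 and BLOC1S5-TXNDC5, 0.05 in CTC-260F20.3, 0.09 in UPK3BL, RP11-762I7.5 and RP11-140H17.1, -0.12 in RP3-468K18.5, -0.75 in SPECC1L-ADORA2A and -0.06 in PRICKLE4.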
